A study of Arabidopsis thaliana with 22 samples.

Results

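This report describes the places near the centromeres of Arabidopsis thaliana with peak calls for the chromatin protein ZMP and none for RNA polymerase IV (Pol IV). They were 483 regions of 7906 merged ZMP-HA regions. The study itself took its ZMP-binding sites from peaks that passed a reproducibility filter across replicates. That filter was not applied here, so a member need not be a binding site by the study's criterion. The regions were chosen by their peak calls in chromatin immunoprecipitation sequencing (ChIP-seq), a method that sequences the DNA recovered with an antibody beside input DNA. A region was kept when both ZMP-HA replicates had a peak on it, when no peak of 4 libraries without a transgene, of 4 NRPD1-HA libraries or of the H3K4me3 library shared a base with it, and when its midpoint lay in a gene-poor window around a centromere. The windows covered bases 13100001 to 16700000 of chromosome 1, bases 3800001 to 6100000 of chromosome 2, bases 11300001 to 15900000 of chromosome 3, bases 2700001 to 5600000 of chromosome 4 and bases 10100001 to 13900000 of chromosome 5 (TAIR10).

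All samples were inflorescences of the Col-0 ecotype. ZMP-HA plants carried ZMP with a hemagglutinin (HA) tag under its own promoter (2 libraries). NRPD1-HA plants carried the largest Pol IV subunit, NRPD1, with the same tag under the NRPD1 promoter, either in zmp-2, a T-DNA insertion mutant of ZMP (2 libraries), or in the wild type (WT, 2 libraries). Plants with no transgene served as controls in 2 sets, one per tagged protein (2 libraries each), and H3K4me3, a histone mark of active gene starts, was profiled in WT (1 library). Per the study's methods, the transgenic lines were selected for a single insertion. NRPD1-HA and ZMP-HA were profiled in different experiments, so that the absence of Pol IV was judged across experiments. An H3K4me3 peak lay on 7 of 8 floral regulator genes (AP1, AP3, PI, AG, SEP1, SEP2 and SEP3, not LFY), on 1 of 3 root hair genes (LRX1) and on 59.0% of all protein-coding genes. LRX1, with a highest fold enrichment of 5.97, stood above AP1, AP3 and AG (5.65, 5.03 and 5.76), so these peaks do not settle the tissue.

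In plants, Pol IV transcribes transposons and other repeats into precursors of small interfering RNAs, which guide methylation of the matching DNA. Pericentromeric chromatin is rich in transposons and poor in active genes. ZMP holds a PHD domain, a fold that reads histone H3 tails. The study asked how ZMP relates to where Pol IV sits, and the 483 regions are those in pericentromeric chromatin at which the lists give ZMP alone.

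Sequences at the ZMP-HA summits, the highest points of the peaks, are shown for a few chosen members and do not stand for all of them. The first and the sixth of the members ranked by ZMP-HA enrichment (below, the best ranked) are shown because both hold GTGTCGATCGACAC, in capitals, which reads the same on both strands and is the longest such run that they share. Each run is 120 bases of the plus strand, 5′ to 3′, from the RefSeq TAIR10.1 assembly, centred between the 2 replicates' summits.
chr5:12320936-12321055, in pseudogene AT5G32654: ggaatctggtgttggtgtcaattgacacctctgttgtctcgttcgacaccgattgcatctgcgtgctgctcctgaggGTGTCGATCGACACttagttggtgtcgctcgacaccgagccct
chr4:4160589-4160708, in pseudogene AT4G07339: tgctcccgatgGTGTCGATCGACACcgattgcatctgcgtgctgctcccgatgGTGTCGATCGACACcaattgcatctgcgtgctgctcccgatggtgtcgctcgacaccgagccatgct

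The next 4 runs show other kinds of member: 3 more of the best ranked, of which the second is outside any annotated gene, and the best ranked member on a protein-coding gene, which was chosen after its values were seen. Capitals here run from the summit of one replicate to that of the other.
chr1:14716005-14716124, in pseudogene AT1G39513: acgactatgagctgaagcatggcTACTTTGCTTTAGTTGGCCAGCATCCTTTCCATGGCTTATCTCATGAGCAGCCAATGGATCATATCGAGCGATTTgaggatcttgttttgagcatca
chr4:2969559-2969678, in no annotated gene: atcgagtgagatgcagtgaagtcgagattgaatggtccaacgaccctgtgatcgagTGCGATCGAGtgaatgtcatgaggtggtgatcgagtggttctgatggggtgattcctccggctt
chr5:12976952-12977071, in pseudogene AT5G34820: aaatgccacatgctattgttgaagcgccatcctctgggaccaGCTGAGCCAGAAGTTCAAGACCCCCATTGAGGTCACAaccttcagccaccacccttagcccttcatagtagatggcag
chr5:10454786-10454905, in the coding sequence of LSH1: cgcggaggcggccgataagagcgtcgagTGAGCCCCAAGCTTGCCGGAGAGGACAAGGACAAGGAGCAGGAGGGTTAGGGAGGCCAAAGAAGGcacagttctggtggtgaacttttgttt

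Of 4944 ZMP-HA regions with a peak in both replicates, 4276 touched no peak of the libraries without a transgene, 1941 of these had their midpoint in a pericentromeric window, and 1801 of these touched no H3K4me3 peak. The 483 members were 26.8% of these 1801 pericentromeric ZMP sites. A peak of 1 NRPD1-HA list lay on 182 of the other sites, peaks of 2 lists on 289, of 3 lists on 218 and of all 4 lists on 629. The 629 are the sites called with Pol IV below, and the members are compared with them. These sites had a peak in both zmp-2 lists as well as in both WT lists. Sites with Pol IV in WT but not in both zmp-2 lists are therefore left out of that class. Of the 1801 sites, the 2 zmp-2 lists covered 39.1% and 50.5%, and the 2 WT lists 64.4% and 64.2%. Another 201 sites, which are not members, had a peak in neither zmp-2 list and in both WT lists.

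Members were found on all 5 chromosomes, at unequal density. There were 49 on chromosome 1, 97 on chromosome 2, 104 on chromosome 3, 127 on chromosome 4 and 106 on chromosome 5. Per megabase of window, this was 13.6, 42.2, 22.6, 43.8 and 27.9. As a share of the pericentromeric ZMP sites of each chromosome, members made up 16.7% on chromosome 1 (exact binomial 95% interval 12.6 to 21.5), against 35.8% on chromosome 2 (30.1 to 41.8) and 36.9% on chromosome 4 (31.8 to 42.3). Such intervals cover counting error over regions only. Together the members covered 516.5 kb, or 3.0% of the windows, and 29.8% of them had another member within 2 kb.

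Within the windows, members lay in the gene-poor core more often than sites with Pol IV. The core of the windows, where the density of protein-coding genes was under 25% of the chromosome's median, took up 64.5% of their length. It held 401 of 483 members (83.0%, 79.4 to 86.3) and 261 of 629 sites with Pol IV (41.5%, 37.6 to 45.5). Among sites with a peak of 1, 2 or 3 NRPD1-HA lists, the core share was 76.4%, 77.2% and 65.6%.

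ZMP-HA enrichment at the members was low. These lists chose the members, so their values are a description and were not tested. Fold enrichment is the authors' ratio of the summit's fragment coverage to its background, each with 1 added. Members ranged over 1.44 to 3.53 in replicate 1 with a median of 2.11, and over 1.46 to 2.83 in replicate 2 with a median of 2.00. Sites with Pol IV had medians of 2.59 in replicate 1 and 2.28 in replicate 2, and reached 16.0 and 19.2. The median member stood above 33.7% and 34.5% of the peaks of the 2 lists, and the median site with Pol IV above 66.3% and 60.2%.

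**Figure D1:**
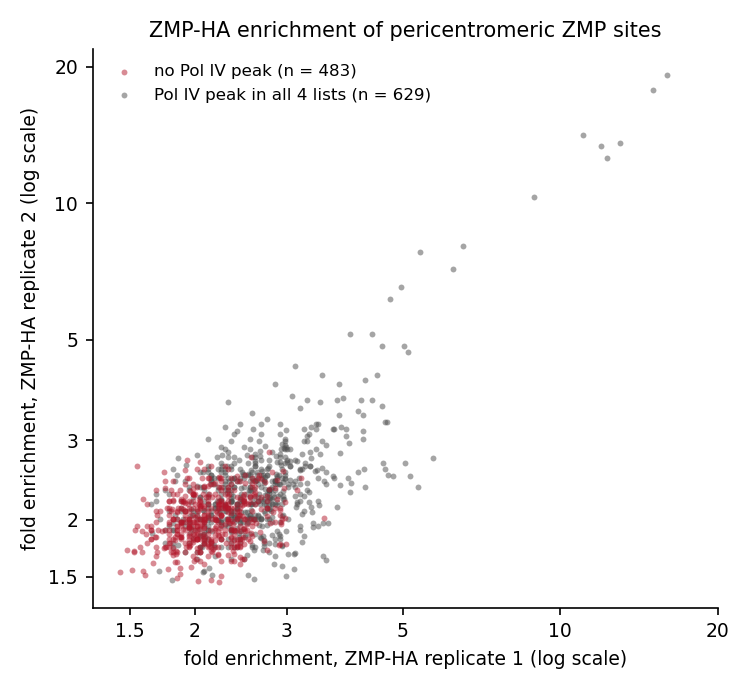
Fold enrichment of each region in ZMP-HA replicate 1 (x axis) and replicate 2 (y axis), both on log scales, for the 483 members (red) and the 629 sites with Pol IV in all 4 lists (grey); each point is a region. The members reach 3.53 and 2.83, and the grey points reach 16.0 and 19.2.

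The order of members was only loosely shared between the 2 replicates. Across the 483 members, which share their libraries, the Spearman correlation of fold enrichment was 0.235, and across the 629 sites with Pol IV it was 0.449. It was 0.268 across the 689 sites with 1 to 3 NRPD1-HA lists. Across the 109 arm sites without Pol IV, described below, it was 0.286. A low correlation was thus not particular to the members. Summits of the 2 replicates were a median of 133 bases apart. In 450 members each replicate had a single peak, and in 442 (91.5%) both q-values were 0.01 or less. Members were narrower, with a median width of 956 bases, than sites with Pol IV, with 1392 bases. Sites of 1 NRPD1-HA list had a median of 1066 bases, and the arm sites 845. Overlap with Pol IV peaks defined the classes and a wider region has more room for it, so widths are a description. The median of the local background over its library's usual level was 1.00 in replicate 1 and 1.01 in replicate 2, and 2 members exceeded 1.5 times that level in both. Members lay nearer to control peaks, at a median of 9573 bases, than sites with Pol IV, at 20350. The median was 12920 bases for sites with 1 to 3 NRPD1-HA lists and 7981 for the arm sites. A further 80 sites in the windows, with no NRPD1-HA or H3K4me3 peak, were left out because they touched a control peak. Control peaks were part of the rule, so these distances were not tested.

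When all 1801 sites were ordered by the geometric mean of their 2 fold enrichments and cut into 4 groups of equal size, the share of members was lower in each more enriched group. It was 45.7% (41.0 to 50.4) in the weakest group, 32.2% (27.9 to 36.8) and 23.6% (19.7 to 27.8) in those between, and 5.78% (3.81 to 8.35) in the most enriched. The share with Pol IV in all 4 lists was 16.4%, 23.3%, 37.6% and 62.4% from the weakest group to the most enriched. Weak Pol IV signal can be missed by a peak list. At the background usual for each NRPD1-HA library, the weakest peak called had a fold enrichment of 1.59 and 1.46 in the zmp-2 libraries and of 1.58 and 1.43 in the WT libraries, and signal under these values would not have been called.

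**Figure D2:**
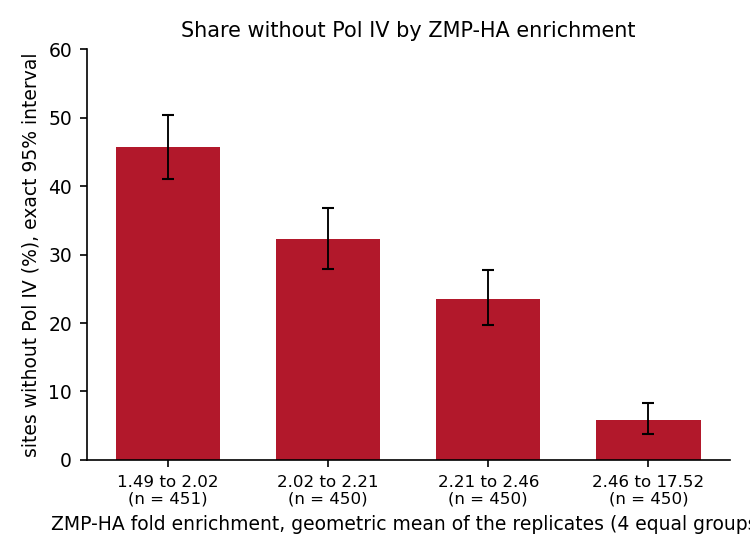
Share of pericentromeric ZMP sites that had no peak in any NRPD1-HA list (y axis, percent) in 4 equal groups of the 1801 sites by the geometric mean of the 2 ZMP-HA fold enrichments (x axis, range and number of sites); bars on the columns are exact 95% binomial intervals. The share is 45.7% in the weakest group and 5.78% in the strongest.

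Members were mostly placed on pseudogenes, a class under which the reference annotation also lists genes of transposons. In all, 387 of 483 members (80.1%) touched one, against 390 of 629 sites with Pol IV (62.0%), and 55.8% of all ZMP sites that touched no H3K4me3 peak. That last group, used again below, held 3921 sites of the windows and the chromosome arms together. Gene density defined the windows, so its shares also reflect location and carry no test. The odds ratio of members over sites with Pol IV was 2.47 (95% interval 1.86 to 3.29, two-sided Fisher's exact test, p = 5.2e-11, adjusted p = 2.6e-10 by Benjamini-Hochberg over the 5 features tested). Regions are not replicates of a condition, so this and the following tests describe these lists. A larger share of members, 46.0%, lay wholly inside a single pseudogene, against 16.1% of sites with Pol IV, although members were also narrower. Measured over a window of 500 bases at each midpoint, which gives both classes equal width, the pseudogene shares were 78.9% and 58.2% (odds ratio 2.68). Among regions under 1500 bases wide, a limit set after seeing the data, they were 76.4% and 43.9% (odds ratio 4.14). Within the gene-poor core alone, where members lay more often, the difference was smaller. There 81.8% of members and 69.35% of sites with Pol IV touched a pseudogene (odds ratio 1.98, adjusted p = 0.0016, two-sided Fisher's exact test). With the 1025 sites that had a peak in both WT lists as the comparison, the contrast was also smaller. Of those sites 68.2% touched a pseudogene (odds ratio 1.88).

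The annotation says little about what these pseudogenes were. Members touched 391 genes, of which 363 were pseudogenes, and 350 of these are described only as an uncharacterized protein. The words retrotransposon or retroelement occurred for 3 genes and LINE or non-LTR for 2. The words gypsy, Athila, copia, CACTA, En/Spm, Mutator, MuDR, hAT, helitron, SINE and transposase occurred for 0. Long noncoding RNA genes numbered 3, and ribosomal or transfer RNA genes 0. No further annotation of transposons was used here.

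Protein-coding genes were under few members. They touched 24 of 483 (4.97%), against 81 of 629 sites with Pol IV (12.9%). In windows and gene-richer arms together, the share was 19.8% of all ZMP sites that touched no H3K4me3 peak. The members' odds were 0.354 times those of sites with Pol IV (0.211 to 0.575, p = 6.6e-06, adjusted p = 1.1e-05, two-sided Fisher's exact test). Without ZMP-HA replicate 2 this odds ratio was 0.600. A start (5′ end) of such a gene was within 500 bases of 20 members (4.14%), against 87 sites with Pol IV (13.8%), and 24.0% of all ZMP sites that touched no H3K4me3 peak. The corresponding odds ratio was 0.269 (0.154 to 0.450, p = 1.8e-08, adjusted p = 4.6e-08, two-sided Fisher's exact test). Within the gene-poor core alone, 4.24% of members and 10.3% of sites with Pol IV touched a protein-coding gene (odds ratio 0.384, adjusted p = 0.006, two-sided Fisher's exact test).

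H3K4me3 was also seldom near the members. By the rule neither class had such a peak on it, but 52 members (10.8%) had one within 1 kb of an edge, against 124 sites with Pol IV (19.7%), and 24.9% of all ZMP sites that touched no H3K4me3 peak. This was an odds ratio of 0.492 (0.340 to 0.704, p = 4.6e-05, adjusted p = 5.7e-05, two-sided Fisher's exact test). Among the 1025 sites with a peak in both WT lists the share was 16.3%, and the odds ratio was 0.62. Sites with Pol IV in 1, 2 and 3 lists had shares of 13.7%, 11.8% and 15.1%, nearer to the members. The median distance to the nearest H3K4me3 peak was 8310 bases for members and 4402 bases for sites with Pol IV. For sites of 1, 2 and 3 lists it was 5782, 7990 and 5360 bases. The difference in shares was not past the threshold when distance was measured from the 500 bases at each midpoint, where 6.63% of members and 9.22% of sites with Pol IV had a peak within 1 kb (odds ratio 0.699, adjusted p = 0.12, two-sided Fisher's exact test).

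Most members held repeated sequence in the 500 bases at their midpoint, the only part scored. A window was called repeated when 50% or more of its 500 bases aligned elsewhere on the 5 chromosomes at 80% identity or more. This held for 408 of 483 members (84.5%), against 481 of 629 sites with Pol IV (76.5%), and 70.5% of all ZMP sites that touched no H3K4me3 peak. Sites with Pol IV in 1, 2 and 3 lists were 86.3%, 82.0% and 82.1% repeated, close to the members. Against sites with Pol IV in all 4 lists, the odds ratio was 1.67 (1.22 to 2.31, p and adjusted p = 0.0011, two-sided Fisher's exact test). It did not pass the threshold within the gene-poor core, with 84.3% of members and 82.8% of sites with Pol IV repeated (odds ratio 1.12, adjusted p = 0.67), among regions under 2.5-fold ZMP-HA enrichment in both replicates, a limit set after seeing the data (84.2% and 81.7%, odds ratio 1.19, adjusted p = 0.44), or without ZMP-HA replicate 1 (odds ratio 1.22, adjusted p = 0.11, all two-sided Fisher's exact tests).

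**Figure D3:**
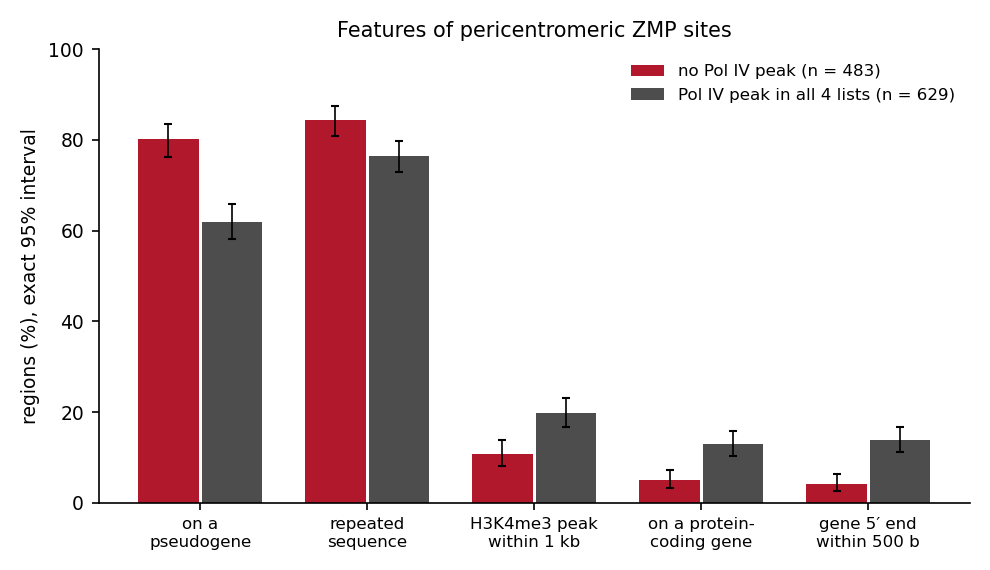
Share of regions with each of the 5 features tested (y axis, percent) among the 483 members (red) and the 629 sites with Pol IV in all 4 lists (grey); bars on the columns are exact 95% binomial intervals. Members are higher for pseudogenes (80.1% and 62.0%) and repeated sequence (84.5% and 76.5%) and lower for the 3 features of genes.

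Sites with a peak of some NRPD1-HA lists mostly took values between those of members and of sites with Pol IV. The number of lists counts WT and zmp-2 libraries together, so it mixes genotypes and is not a level of Pol IV. Of the 289 sites with 2 lists, 201 had a peak in both WT lists and in neither zmp-2 list. For 0, 1, 2, 3 and 4 lists, the share wholly inside 1 pseudogene was 46.0%, 34.6%, 34.6%, 29.4% and 16.1%, and the share on a protein-coding gene was 4.97%, 3.30%, 8.65%, 11.0% and 12.9%. The share on any pseudogene was 80.1%, 79.1%, 82.4%, 75.2% and 62.0%, so that members and sites of 1 or 2 lists were alike in it. Median ZMP-HA enrichment was higher with more lists in both replicates, at 2.11, 2.27, 2.31, 2.35 and 2.59 in replicate 1.

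**Figure D4:**
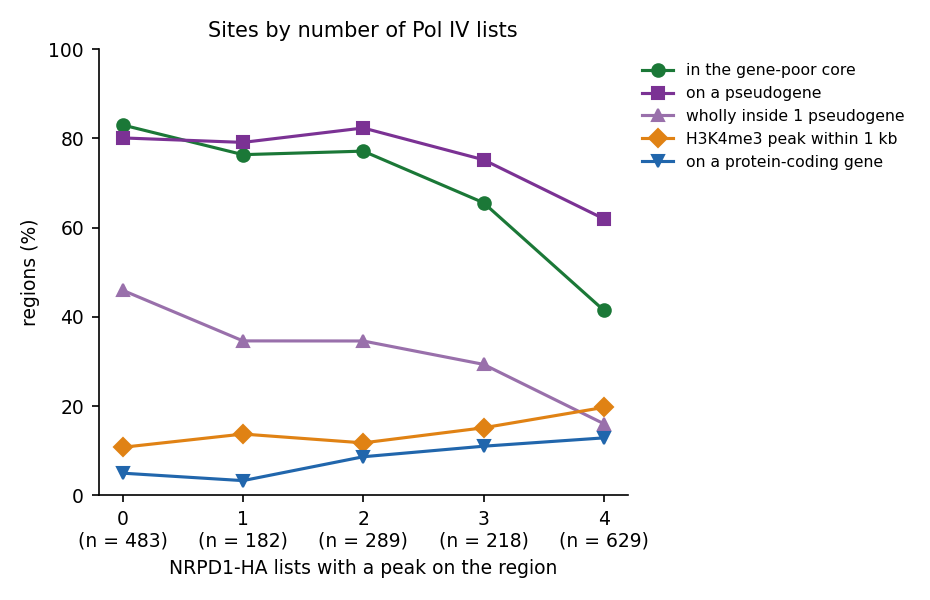
Share of pericentromeric ZMP sites with each feature (y axis, percent) by the number of the 4 NRPD1-HA lists with a peak on the region (x axis, with the number of regions); 0 lists are the members. Lists of WT and of zmp-2 are counted together. The share in the gene-poor core is 83.0% at 0 lists and 41.5% at 4 lists.

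Pericentromeric members can be set beside the 109 ZMP sites on the chromosome arms that touched no NRPD1-HA, H3K4me3 or control peak. Since gene density defined the windows, these values carry no test. Median ZMP-HA enrichment was alike, at 2.11 and 2.00 for members and 2.08 and 2.00 for arm sites. Pseudogenes were touched by 80.1% of members and 64.2% of arm sites, and protein-coding genes by 4.97% and 25.7%. An H3K4me3 peak lay within 1 kb of 10.8% of members and 12.8% of arm sites. The median number of copies elsewhere was 10 for members and 2 for arm sites.

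Copies of a member were counted as other places matched over 50% or more of its 500 bases by a single alignment. Members had a median of 10 copies and up to 279, and sites with Pol IV a median of 3 and up to 282. In 247 members (51.1%) there were 10 or more copies, against 233 sites with Pol IV (37.0%), and 79 members had none. Sites with Pol IV in 1 to 3 lists were close to the members, with a median of 8 copies and 10 or more copies in 48.0%, and those of 1 list had a median of 11. Another copy lay within 2 kb of 9 members. Matches that overlapped the window itself and repeats of short units were not counted, so this count can miss tandem repeats. Linking members that matched each other, directly or through others, gave 32 groups, of which the largest held 119 members from all 5 chromosomes and the next 23. It included the best ranked members on AT5G32654, AT1G39513 and AT4G07339 shown above. A further 206 members matched no other.

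Pol IV was also called on some of the places that matched members. The members' copies fell on 3667 distinct places, of which 85.9% were in the windows, 59.3% touched a ZMP-HA region with a peak in both replicates and 58.3% touched a peak of at least 1 NRPD1-HA list. By library, 25.6% and 39.9% touched a zmp-2 peak, and 42.8% and 49.0% a WT peak. Of the 404 members with copies, 359 had at least 1 copy with an NRPD1-HA peak on it. A member with many copies has many places where such a peak can fall. No such share was computed for the copies of other sites or for the windows at large, so these values do not set members apart. Reads of 2 near-identical copies cannot be told apart, and no filter on reads that fit several places is given in the sources used here.

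The palindrome GTGTCGATCGACAC was searched for after the sequences above had been seen, so it carries no test. It was taken from the first and the sixth ranked members, which favours members, and the sixth is among those counted. The shares therefore do not show enrichment. The palindrome occurred in the 500 bases at the midpoint of 23 members (4.76%), of 6 sites with Pol IV (0.954%) and of 16 sites with 1 to 3 NRPD1-HA lists (2.32%). Among all consecutive windows of 500 bases, 1.26% of those in the pericentromeric windows and 0.20% of those on the 5 chromosomes held it. In 6 members it occurred more than once, and 7 of the 23 belonged to the largest group of matching members. The copy shown for AT5G32654 lies outside the 500 bases at that member's midpoint. A match is a run of letters and says nothing of a protein that binds it.

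Distances from members to the nearest Pol IV peak varied widely. Since overlap with such peaks was part of the rule, distances are a description. The nearest NRPD1-HA peak of any list was a median of 2498 bases from a member. It was within 1 kb of 115 members (23.8%) and within 500 bases of 45, while 127 members (26.3%) had none within 5 kb and 53 had none within 10 kb. Arm ZMP sites without Pol IV were nearer, with a median of 1768 bases and 32.1% within 1 kb. Distances from random places in the windows were not computed, so closeness beyond the density of peaks was not tested. By list, the median distance was 12560 and 5692 bases to zmp-2 peaks, against 4356 and 3502 bases to WT peaks. The zmp-2 lists had a peak within 1 kb of 14 and 52 members, and the WT lists of 47 and 81 members. The zmp-2 lists differed from each other more than the WT lists did, and replicate 1 of zmp-2 had the fewest peaks in the windows (1836, against 2412 to 2468 in the other 3).

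**Figure D5:**
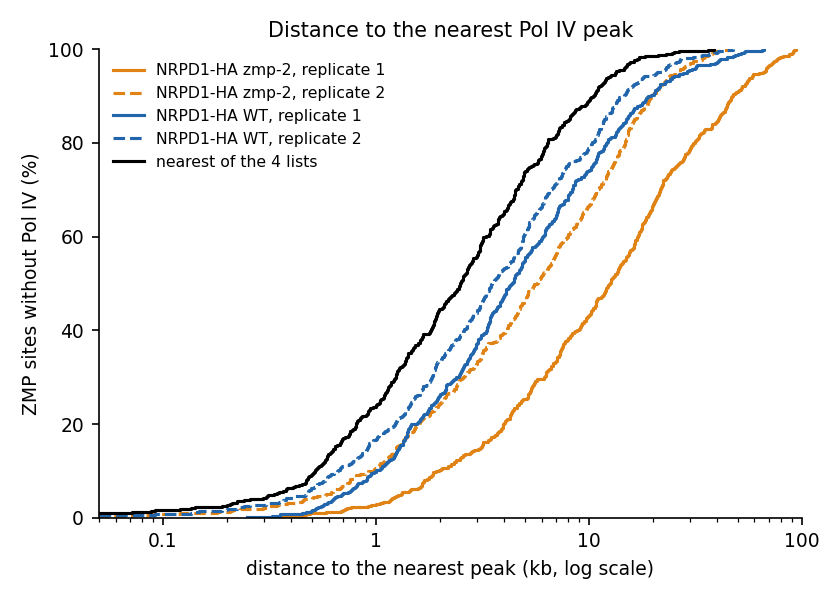
Cumulative share of the 483 members (y axis, percent) with the nearest NRPD1-HA peak at or under a given distance (x axis, kb, log scale), for each of the 2 zmp-2 lists (orange), the 2 WT lists (blue) and the nearest of the 4 (black). Medians are 12560 and 5692 bases for zmp-2, 4356 and 3502 bases for WT and 2498 bases for the nearest of all.

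Individual members show the range of these places. The best ranked, chr5:12319582-12321315, was 1734 bases wide and lay entirely in the exon of AT5G32654, a pseudogene on the minus strand. Its fold enrichment was 2.95 in ZMP-HA replicate 1 (rank 1412 in the list, q = 3.05e-17) and 2.57 in replicate 2 (rank 1499, q = 4.47e-10), from summit coverage of 90 and 67 fragments over backgrounds of 29.8 and 25.5. It had 54 copies elsewhere, and the nearest NRPD1-HA peak was 12053 bases away. It was thus outside the top 1000 peaks of both lists.

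The second, chr1:14715851-14716383 in AT1G39513, had 2.81-fold and 2.55-fold enrichment, 46 copies, and its nearest H3K4me3 peak 122033 bases away. The third, chr4:2969310-2970424, touched no gene and had 3.19-fold and 2.47-fold enrichment with summits 9 bases apart. Its nearest protein-coding gene was AT4G05612 at 5565 bases. The fourth, chr5:12976670-12977225 in AT5G34820, had 2.78-fold and 2.83-fold enrichment, and replicate 2 of NRPD1-HA in zmp-2 had a peak 212 bases from it. The fifth, chr2:4260186-4261746 in AT2G10820, had 2.87-fold and 2.45-fold enrichment and no copy elsewhere. The sixth, chr4:4160231-4160984, had 2.73-fold and 2.42-fold enrichment with 645 of its 754 bases in AT4G07339. Of these 6 members, 5 lay on pseudogenes and 5 had copies elsewhere.

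The widest member, chr1:15162721-15166516, was 3796 bases long and lay inside the pseudogene AT1G40113. It had 2.24-fold and 1.92-fold enrichment, summits 1735 bases apart, an H3K4me3 peak at 331 bases and no NRPD1-HA peak within 15143 bases. The member farthest from Pol IV, chr2:4661904-4662454, was 38615 bases from any NRPD1-HA peak. It lay on the coding sequence of AT2G11626, a gene for an uncharacterized protein, with 1.82-fold and 2.01-fold enrichment.

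On protein-coding genes the best ranked member was chr5:10454592-10455090, within the coding sequence of LSH1 (AT5G28490), which encodes a nuclear protein of light-regulated seedling development. Enrichment was 2.67-fold and 2.46-fold. The region held 55.5% G and C, the highest of all members, whose median was 43.6%, and an H3K4me3 peak lay 86 bases away. ACC1 (AT1G36160), which encodes acetyl-CoA carboxylase, was touched in its coding sequence by chr1:13542212-13543152, with 1.83-fold and 1.62-fold enrichment. Both genes were chosen after their values were seen. The 24 regions gave 25 overlaps with genes, 23 of them in coding sequence and 2 in other exon sequence, and most of the genes touched are described as uncharacterized or by family only.

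The following members mark the limits of the rule, given without a test. The members whose weaker q-value was nearest the authors' limit of 0.05 were chr3:13024994-13026470 in the pseudogene AT3G32031 (q = 4.08e-07 in replicate 1 and 0.0482 in replicate 2) and chr5:11375079-11375745 in no gene (q = 0.0053 and 0.0464). Nearest to Pol IV were chr5:13122128-13122874 in AT5G34856, 3 bases from a peak of NRPD1-HA in zmp-2 replicate 2 and 327 bases from one in WT replicate 1, and chr5:13293156-13294283 over AT5G35035 and AT5G35040, 24 bases from a peak in zmp-2 replicate 2. Just outside, among 182 regions touched by 1 NRPD1-HA list, chr4:4049801-4051336 and chr4:4352142-4352623 were excluded by the weakest peaks, with 1.43-fold and 1.45-fold enrichment in WT replicate 2 (q = 0.0338 and 0.0151). Their ZMP-HA enrichment was 2.32-fold and 1.80-fold for the first and 2.51-fold and 2.19-fold for the second, within the range of the members.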

How the data were processed

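ChIP-seq peak lists of 11 immunoprecipitates among 22 samples were analysed, with input DNA used only by the authors' peak caller. Groups and replicates follow the sample labels, which name no antibody for the controls of NRPD1-HA, titled as immunoprecipitates. The authors trimmed reads with Trim Galore 0.4.3, aligned them to TAIR10 with Bowtie2 2.2.9 and called peaks with MACS2 2.2.6 against input, 1 list per library. The deposited lists give each peak's fold enrichment (a linear ratio), a score, and −log10 p-values and −log10 q-values. The deposited −log10 q-values correspond to a q-value of 0.05 or less. Lists show calls, not read counts, so weak signal and absence cannot be told apart.

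Peaks sharing 1 base or more were merged. Summit coverage and background were solved from the fold enrichment and the Poisson p-value, and rebuilt the deposited p-value within 1% for 100% of peaks. The background usual in a library, which depth sets, was 29.3 and 24.8 fragments for ZMP-HA, 26.6 and 38.7 for NRPD1-HA in zmp-2, and 25.0 and 41.0 for NRPD1-HA of WT plants. Genes and sequence came from RefSeq TAIR10.1, whose 5 chromosomes carry the TAIR10 names and on which 0 peaks ran past an end. Repeats were found with blastn 2.17.0 (word size 16, e-value 1e-05, alignments of 100 bases or more).

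Members and sites with Pol IV were set against each other with Fisher's exact test, two-sided (SciPy 1.17.1) with conditional odds ratios and Benjamini-Hochberg adjustment over 5 features at a threshold of 0.05. Functions were tested on simulated data. Named regions were the 6 members with the best worse rank by fold enrichment in the 2 ZMP-HA lists, the widest, the farthest from Pol IV, the 2 with the weakest q-value, the 2 nearest Pol IV and the 2 outside with the weakest single NRPD1-HA peak. Alternatives were stricter q-values, reciprocal overlap of 50%, a Pol IV margin of 500 bases, other controls, windows, widths and comparison sites, 90% identity, and leaving out each library. The members and lists were chosen with earlier results of these data known.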

Additional observations from a re-analysis of the deposited data

How the results depend on the processing

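The count of 483 members was 318 with a reciprocal overlap of 50% between the ZMP-HA replicates, and 483 to 1026 when libraries were left out in turn. It was 825 without ZMP-HA replicate 1 and 1026 without ZMP-HA replicate 2, since 1 list then sufficed. Over 22 alternatives each, the odds ratios for pseudogenes (1.80 to 4.14), protein-coding genes (0.306 to 0.600) and 5′ ends (0.221 to 0.381) kept their direction and stayed past the threshold. That for H3K4me3 within 1 kb did so in 21 of 22, the exception being 0.699 from the 500 bases at the midpoint. That for repeated sequence did so in 19 of 22. It was 1.12 in the gene-poor core, 1.19 under 2.5-fold enrichment and, with libraries left out, 1.22 to 1.73, the lowest without ZMP-HA replicate 1. The limits of 2.5-fold enrichment and of 1500 bases were chosen after seeing the data, and the cause of these changes was not tested. No paired analysis was possible because the tests compare regions within the same lists, not libraries. Depth limits the weakest Pol IV peak that could be called, and there was 1 H3K4me3 library.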
